A study of Homo sapiens with 2 samples.

Results

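The 9 genes described here encode EP300, CREBBP, KAT2A, KAT2B, KAT5, KAT7 and KAT8, which are lysine acetyltransferases, and ACSS2 and GTPBP1, which are not. They were grouped as proposed writers of lysine lactylation, the joining of a lactyl group to lysine. Their accessible regions were taken from ATAC-seq peak lists as every listed region in the gene body or within 50 kb of either end of the gene (hg38, RefSeq). The genes were chosen with earlier results of these data known. Within their windows the choice of regions used positions alone and no measured value. It gave 87 regions of 98152 in the untreated library and 107 of 122399 in the lactate library. Merging regions that overlap between the lists left 113 regions of 130506, and each of them belonged to a single window.

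Both libraries were made from CAL27, an established human line of tongue squamous carcinoma. One came from cells left untreated and the other from cells exposed to 10 mM lactate for 24 h. ATAC-seq uses the Tn5 transposase, which cuts open chromatin and adds sequencing adapters, so tags pile up over accessible DNA. The file headers count 18248413 tags for the untreated and 15401276 for the lactate library. With 1 library per group there is no replicate check and no test, and every difference compares these libraries rather than the conditions. The intervals given are 95% intervals that cover counting error only, and a summit chosen for its height is not an independent draw.

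The level of a region is its summit pileup, the number of 200 bp extended tags over its highest point, per 1000000 total tags (RPM). It is a height at a position and does not grow with the length of a gene. The ratio is the lactate level divided by the untreated level. Over all 86803 regions shared by both lists the median ratio was 1.65, and it was higher where a region had more tags. A relative ratio therefore divides each ratio by the median for shared regions of similar height, with all shared regions split into 20 bins by summit tags. When the levels were scaled by the summed summit tags of all shared regions in place of total tags, every ratio was multiplied by 0.572 and the overall median became 0.942.

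Lysine acetyltransferases move an acetyl group from acetyl-CoA to lysine side chains of histones and other proteins. Some of them can also use lactyl-CoA, which gives lactyl-lysine, a mark tied to cellular lactate. EP300 and CREBBP are large paralogous coactivators, and EP300 was the acetyltransferase put forward early as a histone lactylation writer. KAT2A (GCN5) and KAT2B (PCAF) form a second paralogous pair and act in the SAGA and ATAC coactivator complexes. KAT5 (TIP60), KAT7 (HBO1) and KAT8 (MOF) belong to the MYST family and act in the NuA4 complex, the BRPF and JADE complexes, and the MSL and NSL complexes. ACSS2 joins acetate to coenzyme A and has been proposed to supply lactyl-CoA. GTPBP1 is a GTP-binding protein related to translation elongation factors. Open chromatin at these genes says nothing of the activity of their proteins.

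Promoter sequences were matched by gene in RefSeq's table for GRCh38.p14, the same build as hg38, which held 10 entries for 8 of the 9 genes, all but KAT8. The 5 printed here are those on which the start-site values turn. The regions of EP300, CREBBP and KAT2B did not cover the annotated start, and KAT5 and GTPBP1 had the tallest start-site summits. Each runs 5′ to 3′ from 250 bases before the annotated start to 30 bases into the transcript. Capitals mark matches to the searched motifs.
EP300 chr22:41092342-41092621, plus strand: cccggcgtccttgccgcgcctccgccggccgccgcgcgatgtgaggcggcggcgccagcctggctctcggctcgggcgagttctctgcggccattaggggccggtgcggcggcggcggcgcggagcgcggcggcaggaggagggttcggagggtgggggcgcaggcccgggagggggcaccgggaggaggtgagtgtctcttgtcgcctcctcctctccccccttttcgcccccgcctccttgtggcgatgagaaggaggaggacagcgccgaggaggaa
CREBBP chr16:3880684-3880963, minus strand: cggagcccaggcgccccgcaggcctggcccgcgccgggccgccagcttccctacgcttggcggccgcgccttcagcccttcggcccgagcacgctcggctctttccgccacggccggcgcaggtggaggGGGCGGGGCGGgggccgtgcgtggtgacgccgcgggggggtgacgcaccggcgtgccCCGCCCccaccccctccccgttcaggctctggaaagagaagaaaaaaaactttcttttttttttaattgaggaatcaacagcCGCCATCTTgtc
KAT2B chr3:20040196-20040475, plus strand: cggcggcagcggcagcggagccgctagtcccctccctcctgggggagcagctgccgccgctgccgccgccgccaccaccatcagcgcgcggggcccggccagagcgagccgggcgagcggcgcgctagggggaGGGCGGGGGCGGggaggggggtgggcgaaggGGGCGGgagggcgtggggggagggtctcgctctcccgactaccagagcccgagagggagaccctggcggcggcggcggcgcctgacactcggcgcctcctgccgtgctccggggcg
KAT5 chr11:65712002-65712281, plus strand: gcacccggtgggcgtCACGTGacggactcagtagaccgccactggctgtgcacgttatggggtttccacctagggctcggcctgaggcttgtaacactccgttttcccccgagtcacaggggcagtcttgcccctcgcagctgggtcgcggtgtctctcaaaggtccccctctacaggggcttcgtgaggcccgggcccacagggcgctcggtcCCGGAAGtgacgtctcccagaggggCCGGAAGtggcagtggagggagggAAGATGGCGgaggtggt
GTPBP1 chr22:38705694-38705973, plus strand: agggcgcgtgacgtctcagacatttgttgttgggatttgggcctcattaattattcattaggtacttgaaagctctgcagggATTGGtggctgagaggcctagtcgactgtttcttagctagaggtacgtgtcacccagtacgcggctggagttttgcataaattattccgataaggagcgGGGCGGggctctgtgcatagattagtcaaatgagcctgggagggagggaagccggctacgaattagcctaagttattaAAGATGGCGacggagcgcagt

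The promoters were searched on both strands for the exact letters of 10 motifs: GGGCGG, the GC box bound by SP factors; CCAAT, the box bound by NF-Y; TATAAA, the TATA box; CCGGAAG, the core bound by ETS factors; the letters AAGATGGCG, bound by YY1. The others were the E-box CACGTG bound by MYC and USF, the cyclic AMP response element TGACGTCA, and by name the consensus sites of AP-1, NRF1 and NF-kappaB. Matches of the GC box can overlap each other, and each is counted. The window searched was 300 bases, 250 before and 50 after the start, in 22132 promoters of protein-coding genes. A GC box stood in 7 of the 10 promoters of these genes, with 17 matches, against 56.3% of all promoters. The YY1 letters stood in 3 of the 10, against 2.42% of all promoters: they begin 18 bases past the start of CREBBP, on the strand opposite to the transcript, 13 past that of KAT5 and 9 past that of GTPBP1. The ETS core stood in 3 promoters, against 12.8% of all, and was found 2 times in KAT5, 36 and 11 bases before its start. CCAAT stood in 2, against 34.6% of all. An E-box was found in KAT5 alone of these genes, against 8.34% of all promoters. EP300 and KAT2A held no match to any of the 10 motifs in this window, and none of the 10 promoters held TATAAA, against 9.46% of all promoters. These matches describe the letters and show no binding.

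The annotated starts that lay outside listed regions did not share 1 base composition. GC content over the 300 bases was 75.3% for EP300, 70.3% for the outer start of CREBBP and 80.3% for KAT2B, at percentiles 88.4, 75.1 and 97.0 of all promoters. The inner CREBBP start, with no listed region over its 300 bases, reached 82.0%. The outer ACSS2 start, also with none and 634 bp from the nearest region, had 55.3%, at percentile 29.5. The starts inside listed regions had between 52.0% (GTPBP1) and 67.3% (KAT5), and the median of all promoters was 62.3%. No listed region of either library touched the 300 bases of EP300 either, while all 300 bases lay in listed regions for KAT5, KAT7, the inner start of ACSS2 and GTPBP1. Among all protein-coding genes with a shared start-site region, 84.5% had the start itself inside that region. The part of base composition in these values was not tested.

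A start-site region was a listed region within 1 kb of an annotated start, or of either gene end for KAT8. It was present in both libraries at 8 of the 9 genes, as for 61.6% of 19974 protein-coding genes. At KAT2B it was listed in the lactate library alone, a state shared by 5.36% of the genes. None of the 9 had it in the untreated library alone, where the share over all genes was 0.586%. At the 8 genes the ratio ran from 1.52 to 3.20 with a median of 2.05, and 5 of 8 reached a ratio of 2, against 39.4% of all genes with a shared start-site region, whose median ratio was 1.84. Which genes reached 2 depended on the summits used. Means over all summits of a region gave 1.70 for KAT7, 1.98 for GTPBP1 and 2.39 for KAT5. The tallest pair of summits within 50 bp gave 1.92 for GTPBP1 and 2.28 for KAT7. The median relative ratio was 1.07 at the 8 genes and 1.04 at all such genes. All 8 counting intervals of the ratio lay above 1, and all 8 intervals of the relative ratio included 1. Scaled by summit tags of shared regions, EP300 (0.978) and KAT5 (0.869) turned to below 1 and the other 6 stayed above it. In bulk libraries, more cells with an open site and more cutting per cell cannot be told apart.

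**Figure D1:**
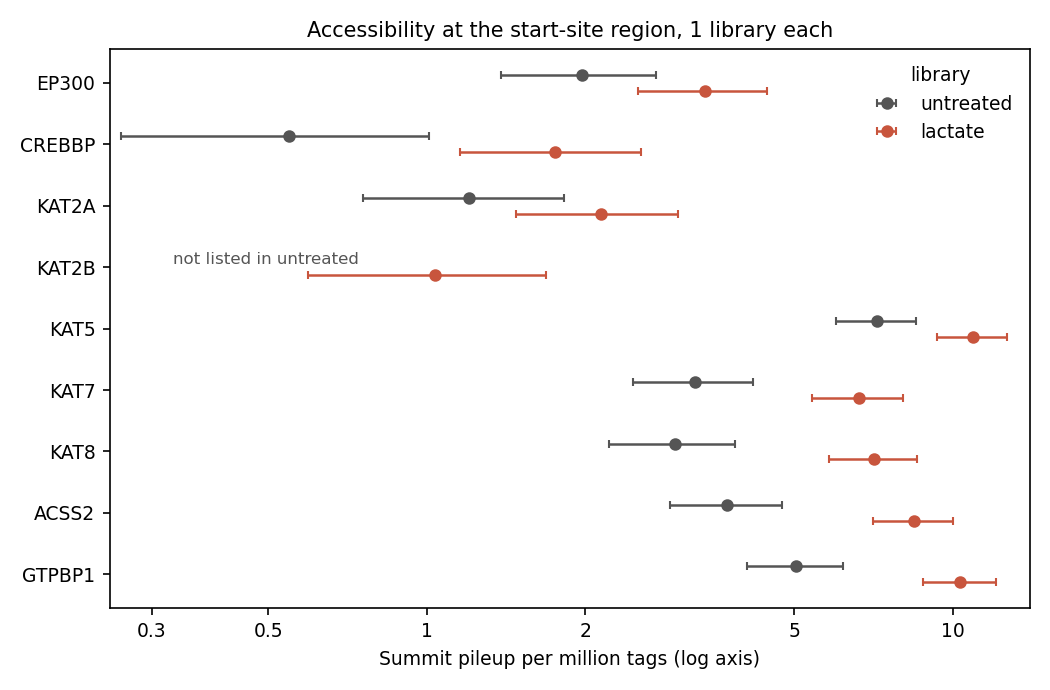
Summit pileup in RPM (log axis) at the start-site region of each gene in the untreated and the lactate library. Points are single libraries and bars are 95% Poisson intervals of the tag count. The lactate point lies to the right of the untreated point at all 8 genes listed in both, under scaling by total tags, and scaling by summit tags of shared regions turns EP300 and KAT5. KAT2B is listed in the lactate library alone. KAT8, whose start was not matched, is shown by the region at its upper-coordinate end.

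EP300 had its start-site region upstream of the gene, at chr22:41091246-41092083, 509 bp before the annotated start. It held 36 untreated and 52 lactate summit tags, levels of 1.97 and 3.38 RPM. The ratio was 1.71 (1.10 to 2.69) and the relative ratio 0.963 (0.618 to 1.52). Its level stood near the middle of all shared start-site regions, at percentile 52.4 untreated and 48.1 with lactate. The summits lay 819 and 862 bp upstream of the start in the untreated and lactate libraries.

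CREBBP, the paralogue of EP300, had a much lower start-site level. The region at chr16:3880744-3881239, 31 bp before the outer start on the minus strand, held 10 untreated and 27 lactate tags. Its levels were 0.548 and 1.75 RPM, at the 2.06th and 17.3rd percentile of all shared start-site regions. The ratio of 3.20 (1.5 to 7.41) was the largest of the 8 start sites, and its relative ratio was 2.06 (0.965 to 4.76). With 10 tags in the untreated library the interval is wide and the relative ratio includes 1. A relative ratio of at least 1.5 was reached by no other start site of the 8, and by 12.2% of all shared regions.

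KAT2A, the GCN5 gene, had a short region across its start at chr17:42121258-42121535 with 22 untreated and 33 lactate tags. Its levels were 1.21 and 2.14 RPM, both near the 25th percentile (24.5 and 24.7). The ratio was 1.78 (1.01 to 3.20) and the relative ratio 1.06 (0.599 to 1.91).

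KAT2B, the PCAF gene, had no untreated region within 1 kb of its start. In the lactate library 2 regions flanked the start, chr3:20039916-20040312 on the upstream side with 16 tags (1.04 RPM) and chr3:20040753-20040995 on the downstream side with 13 tags (0.844 RPM). The lowest pileup listed anywhere was 6 tags in the untreated library, so the untreated level here is unknown rather than 0. Another region just past the 1 kb limit, chr3:20041523-20041837, was listed in both libraries with 8 and 16 tags. Its ratio was 2.37 and its relative ratio 1.83. The lactate-only call at the KAT2B start thus stands on 16 tags with a shared region 1077 bp into the gene.

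The MYST genes had taller start sites than both paralogous pairs, with KAT8 read at a gene end. In the untreated library KAT8 stood 1.5 times (0.966 to 2.35) above EP300, an interval that includes 1. KAT5 had the tallest start site of all 9, at chr11:65711415-65712845, with 131 untreated and 168 lactate tags. Its levels were 7.18 and 10.9 RPM, the 99.2nd and 97.0th percentile. The ratio was 1.52 (1.2 to 1.92) and the relative ratio 0.798 (0.631 to 1.01), the lowest of the 8. This region holds several summits. The summit near the start, 23 bp upstream in the untreated library, went from 131 to 168 tags, while the summit 389 bp downstream went from 87 to 167, a ratio of 2.27 (1.74 to 2.98). The intervals of these ratios overlap, and their difference was not tested. A further untreated summit of 31 tags, 687 bp upstream, had no lactate counterpart. The ratio of the means over all summits was 2.39, above both matched ratios, because that weak summit enters the untreated mean alone.

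KAT7 had its start-site region at chr17:49788360-49789433 with highest summits of 59 untreated and 102 lactate tags, levels of 3.23 and 6.62 RPM. The ratio was 2.05 (1.47 to 2.87) and the relative ratio 1.06 (0.759 to 1.48). The highest summit was not at the same place in the libraries. At the upstream summit, 66 bp before the start in the untreated library, there were 59 tags in each library, a ratio of 1.18 (0.812 to 1.73). At the downstream summit, 528 bp past the start, there were 53 and 102 tags, a ratio of 2.28 (1.62 to 3.24). The intervals of the 2 ratios overlap, and their difference was not tested. The pairing of summits, within 50 bp, was chosen with these values in view.

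KAT8 had a region at each end of the gene. At the upper-coordinate end, chr16:31130448-31131287, there were 54 untreated and 109 lactate tags, levels of 2.96 and 7.08 RPM with a ratio of 2.39 (1.71 to 3.38) and a relative ratio of 1.23 (0.882 to 1.74). This region also lay within 1 kb of 1 end of PRSS8, a serine protease gene. At the lower-coordinate end, chr16:31117333-31118177, there were 53 and 103 tags, with a ratio of 2.30. Both ends therefore gave nearly the same levels.

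ACSS2, the acetyl-CoA synthetase gene, has 2 annotated starts. A region over the inner start, chr20:34875841-34876904, held 68 untreated and 130 lactate tags, levels of 3.73 and 8.44 RPM. The ratio was 2.27 (1.68 to 3.08) and the relative ratio 1.17 (0.865 to 1.59). The summits lay 505 bp upstream of the inner start untreated and 399 bp upstream with lactate. No pair of summits lay within 50 bp, so the ratio compares heights at different places. Before the outer start lay a 206 bp region at chr20:34874150-34874355 with 44 lactate tags and no untreated region. At 2.86 RPM it was the tallest lactate-only region of all 9 windows, although its fold enrichment over local background was 4.21.

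GTPBP1 had the second tallest start site, at chr22:38705307-38706081, with 92 untreated and 159 lactate tags. Its levels were 5.04 and 10.3 RPM, the 95.8th and 96.2nd percentile. The ratio was 2.05 (1.57 to 2.68) and the relative ratio 1.07 (0.826 to 1.40). The tallest summits lay at different places, 328 bp upstream of the start untreated and 209 bp upstream with lactate. Another lactate summit, 373 bp upstream, held 149 tags. Paired with the untreated summit it gave a ratio of 1.92 (1.47 to 2.52).

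In the untreated library the order of start-site levels was KAT5, GTPBP1, ACSS2, KAT7, KAT8, EP300, KAT2A and CREBBP, with KAT2B not listed. KAT8, whose start was not matched, was ranked by the region at its upper-coordinate end in both libraries. KAT5 stood 1.42 times (1.08 to 1.88) above GTPBP1, and the 6 neighbouring pairs after it had intervals that include 1. In the lactate library the order was KAT5, GTPBP1, ACSS2, KAT8, KAT7, EP300, KAT2A, CREBBP and KAT2B. There the step from KAT7 to EP300 was 1.96 times (1.39 to 2.79), and the intervals of the other 7 neighbouring pairs include 1. The spread between cultures is unknown.

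The genes outside the lists with the most similar start-site levels in both libraries, by the sum of absolute log2 differences over 12119 genes, were PLA2G7 for GTPBP1 (distance 0), TBC1D23 for KAT5 (0.0086), and GTF2H4 for KAT7 (0.014). For EP300, CREBBP, KAT2A, KAT8 and ACSS2 between 2 and 5 genes were equally close, among them HAUS4 for EP300, GDA for CREBBP and COASY for KAT2A, CCDC18 for KAT8 and ODR4 for ACSS2. KAT2B, with a level in 1 library, matched 46 genes exactly, among them ABI3. Over 2 libraries such likeness rests on 2 numbers.

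Beyond the start sites, the windows held 13 regions at the starts of the 9 genes, 26 elsewhere in their bodies, 28 at the starts of other protein-coding genes (either end where the table held no start, as for KAT8), 20 in bodies of other genes and 26 between genes. Exons could not be told from introns with the tables used. Of the 113 merged regions, 78 were in both libraries (69.0%, exact binomial interval 59.6 to 77.4), 29 in the lactate library alone (25.7%, 17.9 to 34.7) and 6 in the untreated library alone (5.31%, 1.97 to 11.2). Over all merged regions 26.0% were lactate-only and 7.48% untreated-only, so the shares near these genes were close to the background. Lactate-only regions had 6 to 44 summit tags with a median of 12, and untreated-only regions 6 to 18 with a median of 11.5.

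Within the bodies of the 9 genes there were 36 regions, of which 25 were shared, 11 lactate-only (30.6%, 16.3 to 48.1) and none untreated-only. Over the regions in all protein-coding gene bodies 24.5% were lactate-only, a share inside that interval. The count of 0 allows a share of up to 9.74%, the upper end of its exact binomial interval, and 7.06% of the regions in all protein-coding gene bodies were untreated-only. KAT2B alone supplied 4 of the 11 lactate-only body regions. Without the KAT2B window the lactate-only share of the windows was 23%.

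**Figure D2:**
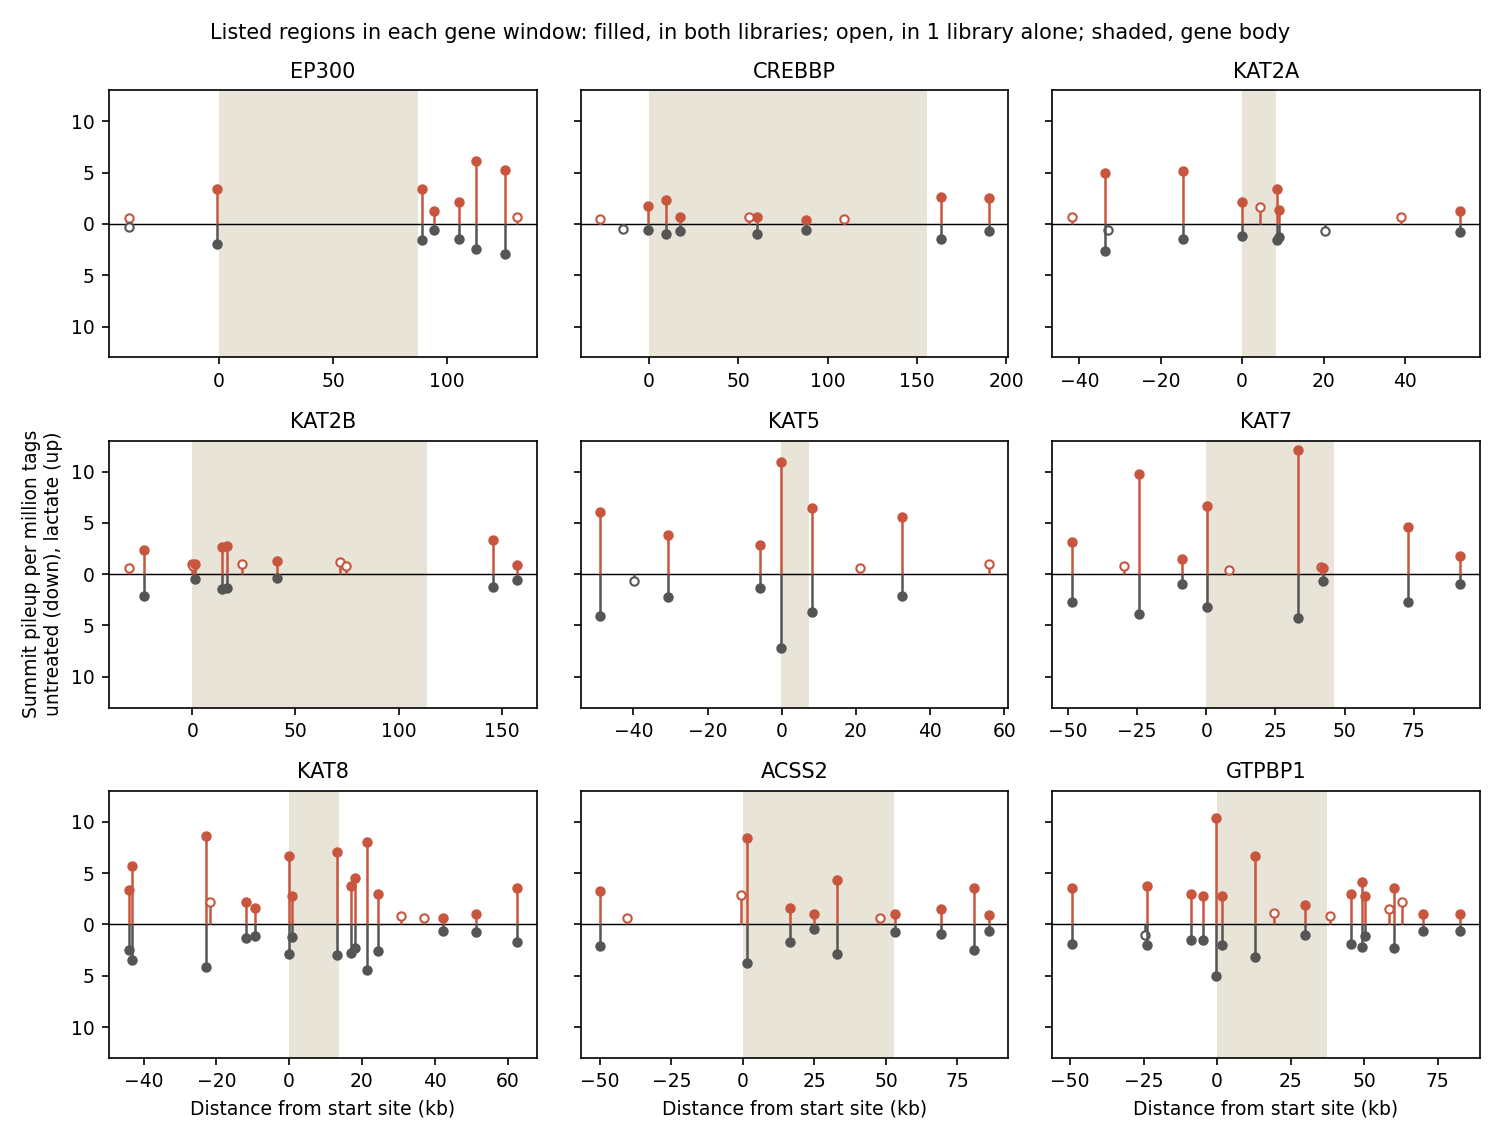
Listed regions of each gene window by distance from the annotated start in kb, along the direction of transcription (for KAT8 from the lower-coordinate gene end). Stems give the summit pileup in RPM, lactate upwards and untreated downwards, and the shading marks the gene body. EP300 has no stem inside its body, KAT2B has 6 open lactate stems, and the tallest lactate stem, 12.1 RPM, lies inside KAT7.

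EP300 had no listed region inside its 87486 bp body in either library. Of the 3823 protein-coding genes at least as long, 26 (0.680%) had none, and the median number was 8. Its 9 window regions were 1 upstream of the start, 2 weak library-only regions with 9 lactate and 6 untreated tags 39 to 40 kb before it, and 6 beyond the far end. The tallest of those, chr22:41204837-41205818 at the start of L3MBTL2, a Polycomb-related gene, had 45 untreated and 95 lactate tags, with a ratio of 2.50. The next, chr22:41217567-41218350 inside L3MBTL2, had 53 and 81 tags and a ratio of 1.81, and chr22:41181429-41182184, past the end of EP300, had 28 and 53 with 2.24. The 6 shared regions of the window all had ratios above 1.5, up to 2.50, and a median relative ratio of 1.11. The 2 library-only regions before the start were close neighbours, chr22:41052830-41053029 with lactate and chr22:41053080-41053381 untreated. They did not overlap, so each was counted as a region of 1 library.

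CREBBP had regions along its body whose ratios went both ways. Of its 155660 bp, 6 body regions were listed, against a median of 12 in genes at least as long. Near the start, chr16:3871134-3871538, 8780 bp downstream, had 18 untreated and 36 lactate tags with a ratio of 2.37. Deeper in the gene 3 shared regions had ratios below 1. They were chr16:3863091-3863310 with 13 and 10 tags (0.911), chr16:3820143-3820503 with 17 and 11 (0.767), and chr16:3792646-3792845 with 10 and 6 (0.711). A further 2, with 11 and 8 lactate tags, were lactate-only. The counts behind these are small, and no interval of the relative ratio of the 3 excluded 1. Past the far end, chr16:3690472-3690807 inside TRAP1, a mitochondrial chaperone gene, had 13 and 39 tags, a ratio of 3.55 and a relative ratio of 2.14 (1.12 to 4.38).

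KAT2A lies in a gene-dense window, where 5 of 11 regions were within 1 kb of a start or an end of DHX58 or a start of RAB5C. Inside its 8257 bp body 1 region, chr17:42116823-42117027, was listed in the lactate library alone with 26 tags. The tallest region of the window in the lactate library, chr17:42135657-42136132 in RAB5C, an endosomal GTPase gene, had 27 untreated and 79 lactate tags. Its ratio was 3.47 (2.21 to 5.58) and its relative ratio 1.90 (1.21 to 3.06). Near the far end of KAT2A, at the upper-coordinate end of DHX58, an innate sensor regulator gene whose start was not matched, chr17:42112562-42112983 had 29 and 53 tags and the neighbouring chr17:42112015-42112395 had 23 and 21, with ratios of 2.17 and 1.08. The window held 2 of the 6 untreated-only regions, with 12 tags near the lower-coordinate end of DHX58 and 11 tags near the start of RAB5C.

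KAT2B had the largest number of lactate-only regions among the 9 windows, 6 of 13, and no untreated-only region. Of these, 4 were in the body and chr3:20111885-20112385, 71592 bp past the start, was the tallest with 18 tags. The others outside the start had 15, 12 and 9 tags. The 7 shared regions had a median ratio of 2.07 and a median relative ratio of 1.28, the highest of the 9 windows. At chr3:20081205-20081522 in the body there were 6 untreated and 20 lactate tags, a ratio of 3.95 (1.53 to 12) and a relative ratio of 2.86 (1.11 to 8.69), the largest of the 78. Closer to the start, chr3:20054501-20055165 had 26 and 41 tags with a ratio of 1.87, and chr3:20057233-20057622 had 24 and 42 with 2.07. At the start of SGO1, a shugoshin gene, chr3:20186064-20186669 had 22 and 51 tags and a ratio of 2.75.

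KAT5 had a compact window with 9 regions, 1 of them in its 7587 bp body. The regions next in height lay at starts of neighbours. At RNASEH2C, a ribonuclease H2 subunit gene, chr11:65719777-65720938 had 67 untreated and 100 lactate tags with a ratio of 1.77. At RELA, the NF-kappaB subunit gene, chr11:65662625-65663963 had 75 and 93 tags with a ratio of 1.47. The largest ratio of the window, 2.68, was at chr11:65744284-65744962 between genes, with 38 and 86 tags. The library-only regions had 15 and 9 lactate tags and 12 untreated tags.

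KAT7 held the tallest region of all 9 windows in the lactate library, chr17:49821856-49822077 inside the gene, 33286 bp past the start. It had 78 untreated and 187 lactate tags, levels of 4.27 and 12.1 RPM, a ratio of 2.84 (2.17 to 3.75) and a relative ratio of 1.49 (1.14 to 1.97). This region is 222 bp wide with 1 summit and so belongs to a class of narrow regions of nearly constant width that makes up 17.6% of all merged regions and 6.19% of those near the 9 genes. Another of that class, chr17:49739963-49740181 in FAM117A, had 49 and 48 tags and a relative ratio of 0.637 (0.419 to 0.968). At the start of FAM117A, chr17:49764066-49764779 had 70 and 151 tags with a ratio of 2.56. Near the end of KAT7 a shared region had 13 and 9 tags, a ratio of 0.820.

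KAT8 had the second largest number of regions, 18, of which 8 lay at starts or unmatched ends of other genes, and 15 were shared. Its ratios ran from 0.987 to 2.39. The tallest regions besides the gene ends were chr16:31094326-31095171 at VKORC1, the vitamin K epoxide reductase gene, with 76 untreated and 133 lactate tags (ratio 2.07), and chr16:31138522-31139377 in PRSS36 with 81 and 124 tags (1.81). At chr16:31141702-31142708, also in PRSS36, there were 47 and 45 tags and the relative ratio was 0.638 (0.415 to 0.982). The tallest lactate-only region had 33 tags, chr16:31095906-31096105.

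ACSS2 had the lowest median ratio of the 9 windows, 1.5, and a median relative ratio of 0.877 over 9 shared regions. In its body, chr20:34891171-34891831 had 31 untreated and 25 lactate tags, a ratio of 0.956 and a relative ratio of 0.569 (0.322 to 0.996). Further along, chr20:34907361-34908420 had 53 and 67 tags with a ratio of 1.5. At the adjoining ends of GSS, the glutathione synthetase gene, and MYH7B, chr20:34955000-34956212 had 46 and 55 tags with a ratio of 1.42.

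GTPBP1 had 19 regions, the most of the 9 windows, and 14 shared ones whose ratios all lay above 1, from 1.38 to 2.55. The tallest in the body after the start was chr22:38718448-38718871 with 58 untreated and 103 lactate tags (ratio 2.1). At the start of SUN2, a nuclear envelope gene, chr22:38754415-38755751 had 40 and 64 tags (1.90). The tallest lactate-only regions, chr22:38768676-38769139 and chr22:38764200-38764643, had 33 and 23 tags. The single untreated-only region, near TOMM22, had 18 tags, the most of the 6 untreated-only regions.

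Over all 9 windows the median ratio of the 78 shared regions was 1.79, against 1.65 for all shared regions, and became 1.03 against 0.942 when scaled by summit tags of shared regions. The median relative ratio was 1.05. A ratio of at least 2 was found at 27 of 78 regions (34.6%, 24.2 to 46.2), against 29.3% of all shared regions, and a ratio below 1 at 6 (7.69%), against 11.3%. No region of the 78 had a ratio of at most 0.5, against 0.297% of all. The relative ratio reached 1.5 at 7 regions, against 12.2% of all, and was at most 1/1.5 at 6, against 12.7%. Its interval lay above 1 at 4 regions, those named in TRAP1, RAB5C, KAT2B and KAT7, against 5.04% of all shared regions. It lay below 1 at 3, those named in FAM117A, PRSS36 and ACSS2, against 6.91%. As shares of the 78 these were 5.13% and 3.85%, both near or below the background.

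The ratios by place in the windows were as follows. At starts of the 9 genes it had a median of 2.11 over 10 shared regions, elsewhere in their bodies 1.89 over 16, at starts or unmatched ends of other genes 1.88 over 24, and in the remaining places 1.67 over 28. The corresponding median summit tags of the untreated library were 53.5, 18, 39 and 25.5. In the same order the median relative ratios were 1.12, 1.07, 1.02 and 1. Of the 10 regions at starts, 3 lay at the ends of KAT8, whose start was not matched. Of the 6 regions with a ratio below 1, 5 lay in the bodies of the 9 genes, 3 in CREBBP and 1 each in KAT7 and ACSS2. This pattern was noticed after the values were seen and was not tested.

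**Figure D3:**
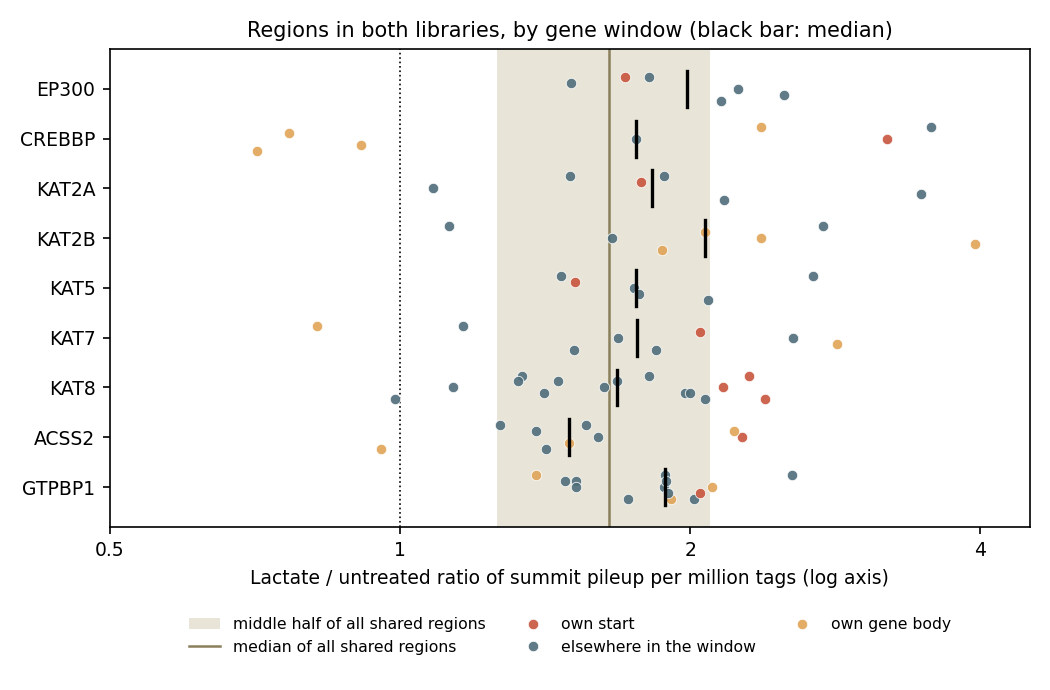
Ratio of summit pileup in RPM, lactate over untreated (log axis), for each of the 78 shared regions by gene window. Points are single regions coloured by place, black bars are window medians, the shaded band runs between the quartiles of all 86803 shared regions and the brown line their median of 1.65. Medians run from 1.5 at ACSS2 to 2.07 at KAT2B, and the 3 body regions of CREBBP below 1 stand at the left.

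The start sites of cell type markers were read in the same way. Of 10 squamous epithelial markers, 8 had a start-site region in both libraries, with untreated levels of 0.438 to 5.15 RPM and lactate levels of 0.584 to 10.1. The defining markers TP63 and KRT14 had no start-site region in either library. The search covered only 1 kb around an annotated start for TP63, and around the gene ends for KRT14, whose start was not matched. Whether these genes had listed regions elsewhere was not tested. Start-site regions were listed in neither library for all 5 endothelial markers, 4 of 8 fibroblast markers (COL3A1, DCN, LUM and THY1) and the general leukocyte marker PTPRC, against 32.5% of all protein-coding genes. The fibroblast markers COL1A1, COL1A2 and PDGFRA were listed in both libraries, at 0.548 to 2.96 RPM untreated and 1.23 to 4.35 with lactate. A further fibroblast marker was listed in the lactate library alone. The leukocyte markers CD3E, CD14, LYZ and CD68 were listed in both, at 0.548 to 4.66 RPM untreated and 1.36 to 10.5 with lactate. No start was matched for CD3E, LYZ, COL1A1 and COL1A2, nor for the epithelial markers KRT17, KRT6A, CDH1 and EPCAM. Their regions may lie at either gene end and do not show an open start. The part of these fibroblast and leukocyte markers in the results was not tested.

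The start sites of 81 other genes of the same pathways were compared with those of the 9. The genes were listed by role with earlier results of these data known. NAA40, KAT6B, HAT1, ACLY, HIF1A and USP22 are named because of their values. Of the 81, 74 had a start-site region in both libraries, none in 1 library alone and 7 (NCOA2, ELP3, ACSS3, YEATS2, BRPF3, MSL1 and MCRS1) in neither, which is 8.64% against 32.5% of all protein-coding genes. A ratio of at least 2 was reached by 30 of 74 (40.5%, against 39.4% of all genes with a shared region), 4 had a ratio below 1, and the median ratio was 1.87 with a median relative ratio of 1.07. The ratios differ little from those of all genes with a shared start-site region, while a smaller share of the 81 genes had no start-site region.

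Among the other acetyltransferases, 16 of 18 had shared start sites with a median ratio of 1.78, and 6 reached 2. NAA40, which acetylates the amino terminus of histones H2A and H4, had the tallest lactate level of the 81 genes, 16 RPM against 5.64 untreated. The MYST gene KAT6B had levels of 4.71 and 13.4 RPM, a ratio of 2.84 and a relative ratio of 1.49, and HAT1, which acetylates new histone H4, had a ratio of 2.47. CLOCK, a circadian regulator with acetyltransferase activity, had 21 untreated and 16 lactate tags, a relative ratio of 0.580 (0.283 to 1.17). The alanyl-tRNA synthetases AARS1 and AARS2, which have also been proposed as lactyltransferases, had ratios of 2.61 and 1.78.

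In the supply of acetyl-CoA and lactyl-CoA, 6 of 7 genes had shared start sites, with a median ratio of 1.78. The largest relative ratio of the 81 genes was that of SUCLG2, a subunit of the GTP-forming succinyl-CoA synthetase, with 9 untreated and 29 lactate tags and a relative ratio of 2.46 (1.13 to 5.90). ACLY, which makes acetyl-CoA from citrate, had a ratio of 2.27. All 6 partners of EP300 and CREBBP had shared start sites with a median ratio of 1.58, and 1, HIF1A, reached 2, with 2.69.

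Of the SAGA and ATAC subunits, 18 of 19 had shared start sites, with a median ratio of 1.85, and 8 reached 2. TRRAP, the scaffold shared by SAGA and NuA4, had 21 untreated and 16 lactate tags and a relative ratio of 0.580 (0.283 to 1.17), while the ubiquitin protease gene USP22 had a ratio of 3.01. All 11 NuA4 subunits had shared start sites, with a median ratio of 1.97. Of the KAT7 complex subunits 7 of 8 had them, with a median of 2.04. ING4, a reader of methylated histone H3, had 22 and 64 tags and a relative ratio of 1.94 (1.18 to 3.31), JADE1 9 and 17 tags with 1.62 (0.683 to 4.12), and BRD1 20 and 12 tags with 0.488 (0.217 to 1.05). Of the KAT8 complex subunits 8 of 10 had them, with a median of 1.88 and no ratio below 1.

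**Figure D4:**
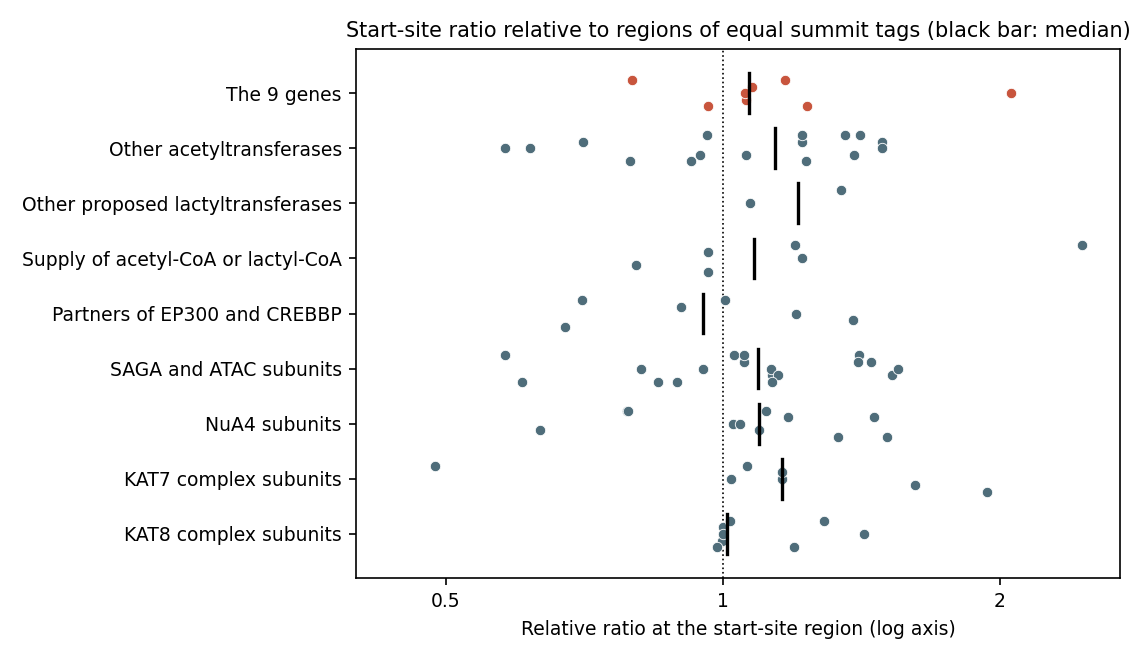
Relative ratio at the start-site region (log axis) of the 8 genes listed in both libraries and of the other genes of their pathways, by role. Points are genes, black bars are medians, and the dotted line at 1 is the median of shared regions with equal summit tags. CREBBP, at 2.06, and KAT5, at 0.798, are the outermost of the 8, and SUCLG2, at 2.46, and BRD1, at 0.488, those of the other genes.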

How the data were processed

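Per the submitters' processing notes, reads were handled with fastp 0.20.0, BWA 0.7.12 and MACS2 2.1.0 on hg38, while the file headers name MACS 2.2.7.1. Peaks were called by the authors for each library alone with no control, per the file headers, at a q threshold of 0.05, with each tag shifted by 100 bp and extended to 200 bp around the Tn5 cut. The deposited pileup is an unscaled signal in tags, and the deposited fold is its ratio to local background. The other deposited columns are positions and widths in base pairs. A −log10 p for a stricter threshold was recomputed as the Poisson upper tail from pileup and fold.

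Regions were merged where the lists overlapped by at least 1 bp, on chromosomes 1 to 22 and X (252 untreated and 255 lactate regions lay elsewhere), with Python 3.11.15, pandas 2.3.3 and scipy 1.17.1. Merging, ratios and intervals were tested on simulated data. The members and lists were chosen with earlier results of these data known. Per window, the text names the start-site region, the 3 tallest regions, up to 2 regions of each library alone, and others marked by their values. The other pathway genes named are the 3 highest and 3 lowest relative ratios, plus some chosen after their values were seen. Gene models came from RefSeq (GRCh38.p14), and all 81 other pathway genes matched. Of the 19974 protein-coding genes, 15812 had a start in the promoter table, and both gene ends stood in for the rest. The start site of 1 marker gene is not reported here.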

Additional observations from a re-analysis of the deposited data

How the results depend on the processing

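No paired analysis was possible because there is a single library on either side. Of 51 alternative values, 31 stayed within the tolerance set for each kind of value (1.5 times for a count, the counting interval for a start-site ratio or a share), and 20 moved. None took a ratio of 2 or more to below 1, while EP300 and KAT5 passed below 1 under 1 scaling. Gene bodies alone gave 25 shared, 11 lactate-only and 0 untreated-only regions with a median ratio of 2.05 (all protein-coding gene bodies 24.5% lactate-only, 7.06% untreated-only and 1.68), and windows of 10 kb gave 42, 14 and 0 with 1.90, smaller counts because the windows are smaller. With both lists held to a −log10 p of 7 or more, 64 of 96 regions were shared, 30 lactate-only and 2 untreated-only, against 26.9% and 6.71% of all regions for the last pair. Scaling by summit tags of shared regions gave a median ratio of 1.03, a share of 2.56% at or above 2 (1.5% of all shared regions), and start-site ratios of 0.978 for EP300, 0.869 for KAT5, 1.17 for KAT7, 1.37 for KAT8, 1.29 for ACSS2, 1.17 for GTPBP1, 1.83 for CREBBP and 1.02 for KAT2A, all lower by the same factor of 0.572. Averaging over summits gave 2.39 for KAT5, whose untreated mean alone holds a weak unmatched summit. The same averaging gave 2.97 for KAT8, 1.70 for KAT7 and 1.98 for GTPBP1, and KAT7 and GTPBP1 thereby fell below 2. On the relative ratio, 3.85% of shared regions reached 2 and 8.97% reached 1.5. A start-site window of 250 bp held no EP300 region. The pairing of summits within 50 bp was chosen after seeing the data. Depth limits the weakest regions most, since 10 untreated tags at CREBBP leave an interval of 1.5 to 7.41.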
